A study of Mus musculus with 25 samples.

Results

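The lungs of knockout mice without the prostaglandin F receptor FP (FP-KO) were compared 14 days and 7 days after bleomycin, to see which genes of the injury moved back toward their level on Day 0. The samples were chosen by title and are 4 FP-KO mice on Day 14 and 4 on Day 7, 8 of the 25 arrays of the series. Set beside them were 4 FP-KO mice on Day 0, which the labels call baseline, and wild-type (WT) mice on Day 0 (4), Day 7 (4) and Day 14 (5). All were female. Per the labels, bleomycin was given into the trachea on Day 0 at 1 mg/kg in 40 ul of saline, and total RNA of lung was hybridised to Affymetrix mouse 430 2.0 arrays, 1 array per mouse as titled. The labels do not say how the receptor was deleted, nor the strain and age of the mice.

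FP is a G-protein-coupled receptor on the cell surface that binds prostaglandin F2alpha, a lipid made from arachidonic acid by cyclooxygenases. Bleomycin breaks DNA strands, and in mouse lung it is used to model fibrosis: leukocytes enter and inflammatory chemokines are made first, lung cells and macrophages divide, and collagen and other matrix then build up. Genes of inflammation and of cell division commonly come down after the first phase, while matrix and scar macrophage genes can stay high for longer.

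Ptgfr, the gene of the FP receptor, had normalized intensities of 41.7, 49.7, 39.6 and 44.5 in FP-KO mice No. 1 to 4 on Day 7 and of 24.3, 33.6, 46.8 and 27.5 on Day 14, where 24.3 is the floor set under low values. The 13 WT arrays lay higher, from 127 to 361. The labels do not place the probes relative to the deletion, and in FP-KO lungs Ptgfr did not pass between the days (log2 difference -0.45, limma adjusted p = 0.172). Other Ptgfr probe sets above the filter differed by 0.08 and 0.10.

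The 4 Day 14 mice are not alike, and this touches every result below. Principal component 1 (42.0% of the variance) separates Day 0 from most injured lungs, and on it FP-KO Day 14 No. 2 lay at -28.9, among the Day 0 arrays of both genotypes (-35.0 to -24.8). No. 1, 3 and 4 lay at 1.44, -5.37 and -3.87. The Day 7 mice were spread as well, with No. 1 to 4 at 25, 24.4, 12.3 and 2.56. The array of No. 2 also had 18S ribosomal RNA at a deposited intensity of 6339, against 746.1, 230.8 and 211.7 in No. 1, 3 and 4, and an Actb 3′ to 5′ ratio of 1.56 against 1.38 to 1.40. FP-KO Day 0 No. 1 was alike in both, at 6648 and 1.55. On the second component No. 1 and No. 2 lay at 28.3 and 30.1 with WT Day 14 No. 1 to 3, while No. 3 and 4 lay at -0.07 and -1.48 with WT Day 14 No. 4 and 5. The Day 7 mice lay between -20.3 and -11.2 on that component. The labels do not say what sets the arrays apart, so results are given with all mice and without Day 14 No. 2. The main counts and those of some lists are also given with No. 3 and 4 alone at Day 14. The part of these differences in the results was not tested.

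**Figure D1:**
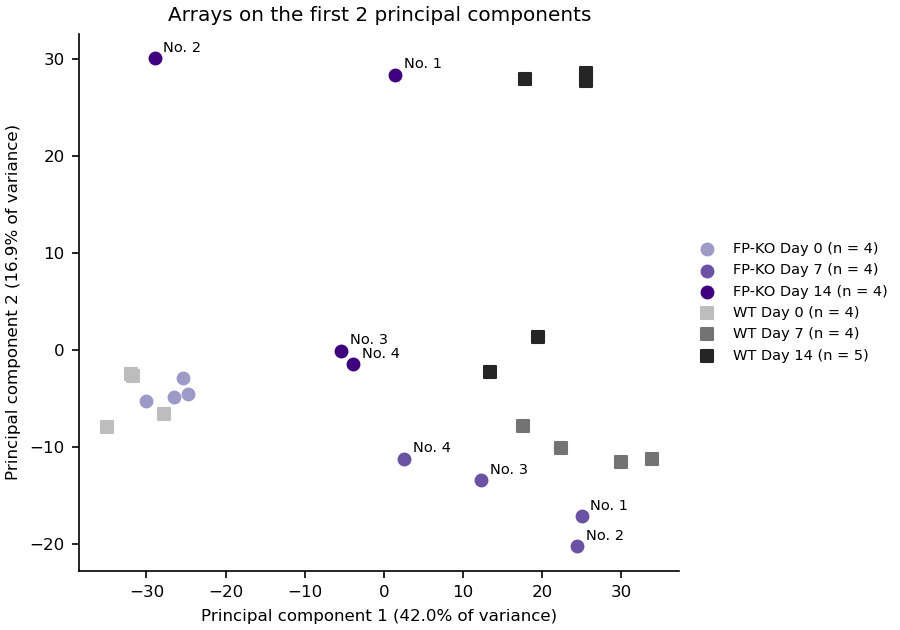
Each point is 1 of the 25 arrays, placed by principal components 1 (x axis, 42.0% of variance) and 2 (y axis, 16.9%) of normalized log2 intensity. Circles are FP-KO and squares WT lungs, and the mouse numbers of FP-KO Day 7 and Day 14 are written beside their points. FP-KO Day 14 No. 2 lies at -28.9 on the x axis beside the Day 0 arrays, and No. 1 and 2 lie above 28 on the y axis, apart from No. 3 and 4.

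Of 12062 genes tested, 1294 (10.7%) rose and 1448 (12%) fell in FP-KO lungs from Day 7 to Day 14 at a Benjamini-Hochberg adjusted p under 0.05 in limma. The falls were larger than the rises: 197 genes fell and 33 rose by at least 1 on the log2 scale, which is a doubling or a halving. Without Day 14 No. 2, 482 genes (4.00%) rose and 585 (4.85%) fell, and 1047 of these 1067 genes had passed in the same direction with all mice. The fits share every array but that of No. 2, so most of this overlap was built in. With No. 3 and 4 alone at Day 14, 111 (0.920%) rose and 236 (1.96%) fell. With No. 1 and 2 alone, 1927 (16.0%) rose and 2057 (17.1%) fell. These fits estimated the spread of each gene from the arrays of all groups, WT included. With the 8 FP-KO arrays of Day 7 and Day 14 alone in the fit, 141 genes rose and 231 fell. The balance of rises and falls moved with the scaling: values as deposited gave 1575 rises and 1375 falls, and a common median gave 669 and 1057. Leaving out Day 7 No. 1 gave 694 rises and 824 falls, and leaving out Day 7 No. 2 gave 707 and 721.

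In 1196 genes (9.92%) every Day 14 mouse lay below every Day 7 mouse, and in 1169 (9.69%) every Day 14 mouse lay above. The Day 14 mouse with the lowest value was No. 2 in 76.4% of the genes that fell, against 32.2% of all genes tested. Among the genes that rose, No. 1 and 2 both lay above No. 3 and 4 in 64.3%, against 28.1% of all genes. The RNA is of whole lung, so fewer cells of a type and less RNA per cell cannot be told apart.

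Injury genes were taken from the difference between WT Day 7 and Day 0, so that the means that chose them and the means that measured their return come from different arrays. The normalization, the filter and the estimate of spread were shared by all 25 arrays. In all, 490 genes rose and 196 fell at least 2-fold by Day 7 in WT lungs with an adjusted p under 0.05. Of the 490 risers, 445 also rose in FP-KO lungs by Day 7, where 1523 of all genes rose (12.6%) and 1291 fell (10.7%). From Day 7 to Day 14 in FP-KO lungs 307 of the 490 (62.7%) fell and 1 rose further. Without Day 14 No. 2, 195 (39.8%) fell and 2 rose, and with No. 3 and 4 alone 124 (25.3%) fell. With the 8 FP-KO arrays alone in the fit, 107 fell. The median difference of the 490 was -0.78 on the log2 scale with all mice and -0.58 without No. 2, against -0.00344 over all genes tested.

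How close the risers came to Day 0 depended on mouse No. 2. Their mean log2 intensity above the FP-KO Day 0 mean was 1.52, 1.52, 1.19 and 0.93 in Day 7 mice No. 1 to 4. On Day 14 it was 0.76, -0.13, 0.59 and 0.64. Each Day 14 mouse lay below each Day 7 mouse, No. 2 lay within the range of the Day 0 mice (-0.18 to 0.15), and the other 3 lay between the Day 0 and the Day 7 mice. Against FP-KO Day 0, which shares the Day 14 mice with the comparison above, 78 of the 490 were still higher on Day 14 with all mice and 175 without No. 2. Over all genes, 223 (1.85%) were higher and 170 (1.41%) lower on Day 14 than on Day 0 with all mice, and 384 (3.18%) and 185 (1.53%) without No. 2. The median of the 490 risers stood at 0.45 above Day 0 with all mice and at 0.63 without No. 2, after 1.17 on Day 7.

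**Figure D2:**
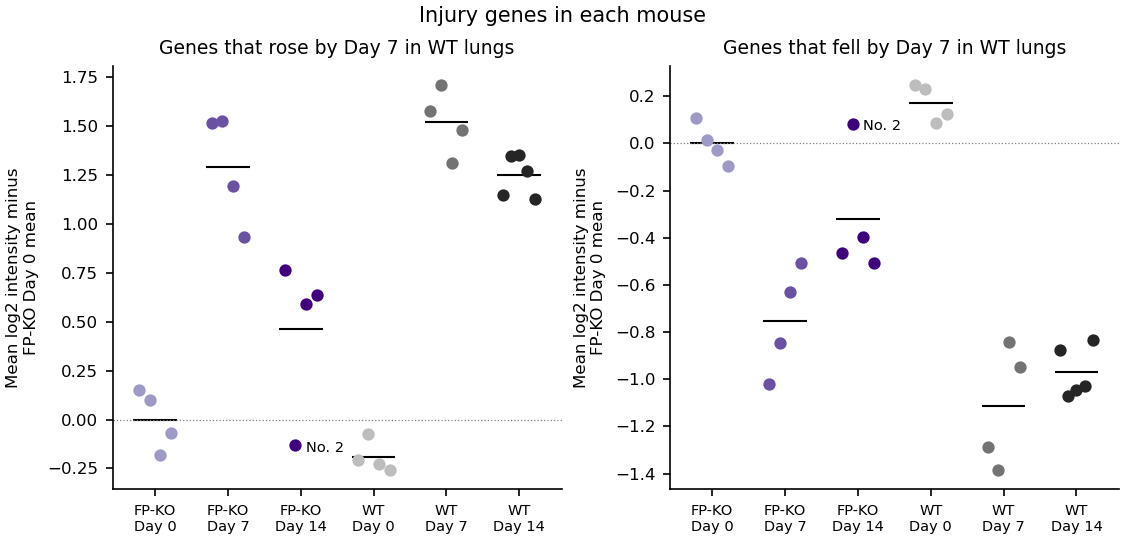
The y axis is the mean log2 intensity, minus the FP-KO Day 0 mean, of the 490 genes that rose (left) and the 196 that fell (right) by Day 7 in WT lungs, with 1 point per mouse and a line at each group's mean. Because the WT mice chose the genes, the WT Day 0 and Day 7 points are shown for reference only. On the left the FP-KO Day 14 mice run from -0.13 (No. 2) to 0.76, below the Day 7 mice (0.93 to 1.52). On the right No. 2 lies at 0.08 and the other Day 14 mice lie at -0.51 to -0.40.

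Of the genes lowered by injury, part came back. Of the 196 fallers 129 also fell in FP-KO lungs by Day 7. From Day 7 to Day 14, 66 (33.7%) rose and 1 fell further. Without No. 2 the count was 22 (11.2%) and with No. 3 and 4 alone it was 9. With the 8 FP-KO arrays alone in the fit it was 14. Their mean below FP-KO Day 0 was -1.02, -0.85, -0.63 and -0.51 in the Day 7 mice and -0.47, 0.08, -0.40 and -0.51 in the Day 14 mice. Day 7 No. 4 and Day 14 No. 4 thus lay at the same level, and only No. 2 was back at the Day 0 level. The median of the fallers rose by 0.47 with all mice and by 0.32 without No. 2.

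Monocyte chemokines and the acute-phase protein serum amyloid A were among the largest falls. Ccl2, which draws monocytes from blood through the receptor Ccr2, had normalized intensities of 703, 599, 759.9 and 436 in the Day 7 mice No. 1 to 4 and of 138, 86.9, 63.4 and 104 in the Day 14 mice, with 64.8 ± 27.1 on Day 0 (SD, n = 4). It fell 6.49-fold (log2 difference -2.70 ± 0.30, standard error; adjusted p = 1.83e-05) and by the same order without No. 2 (-2.66). All Day 14 mice lay below all Day 7 mice, and No. 2 was not the lowest. Ccl7, another monocyte attractant, stood at 288, 249, 257 and 210.1 on Day 7 and at 40.8, 24.3, 35.6 and 26.5 on Day 14, where No. 2 was at the floor, so that its 8.01-fold fall is understated. Saa3, the serum amyloid A made in inflamed tissue, stood at 3728, 2926, 9397 and 6952 on Day 7 and at 859, 300.1, 649 and 1010.3 on Day 14, an 8.06-fold fall with all mice and a 6.26-fold fall without No. 2. Each mouse of Day 14 was again below each mouse of Day 7, and without No. 2 Saa3 was still above Day 0 (1.40, adjusted p = 0.0312).

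Of 13 CC chemokines and receptors tested 9 fell and 0 rose, with a median of -1.27. Without No. 2, 6 fell, and with No. 3 and 4 alone 3 fell. The genes that fell include the leukocyte attractant Ccl3 (-1.54), its receptor Ccr1 (-1.39), the Ccl2 receptor Ccr2 (-1.27) and the monocyte attractant Ccl12 (-1.30). Each of these also fell without No. 2. The lymph node homing receptor Ccr7 was at -0.05 (adjusted p = 0.834) and the eosinophil attractant Ccl11 at -0.36 (adjusted p = 0.467). Of 12 other inflammatory cytokines 7 fell with all mice and 4 without No. 2. The B cell attractant Cxcl13 stood at 1714, 1488, 1734 and 2389 on Day 7 and at 613, 541, 705 and 653 on Day 14 (-1.53 ± 0.28), with no overlap and little spread within either day. The neutrophil attractant Cxcl2 fell with all mice (-1.40) and did not pass without No. 2 (-1.06, adjusted p = 0.0919).

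Il1b, which encodes the fever cytokine interleukin 1 beta, stood at 534, 971, 498 and 675 on Day 0, at 515, 528, 849 and 689.6 on Day 7 and at 252, 245, 221 and 371 on Day 14. Day 7 did not differ from Day 0 past the test (-0.03, adjusted p = 0.942), and Day 14 lay below both Day 7 (-1.24, adjusted p = 0.00313) and Day 0 (-1.28, adjusted p = 0.0111).

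Of 20 complement and acute-phase genes 7 fell with all mice and 5 without No. 2, and 0 rose. The acute-phase inducer Il6 went from 128 ± 25.4 on Day 7 to 40.9 ± 13.3 on Day 14 (SD, n = 4), with all Day 14 mice lower and near the floor (-1.69 ± 0.37). Its feedback inhibitor Socs3 fell by 1.18 on the log2 scale, from 2815 ± 379 to 1295 ± 439.7 (SD, n = 4). The protease inhibitor Serpina3n fell (-1.09) and was still above Day 0 on Day 14 (0.94, adjusted p = 0.0196). The macrophage lectin Clec4e, a sensor of dead cells, fell from 456 ± 166 on Day 7 to 108 ± 45.2 on Day 14.

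Macrophage markers came down in part. Of 17 tested, 8 fell and 0 rose with all mice (median -0.71), and 4 fell without No. 2 (median -0.34). Those 4 were the IgG receptor Fcgr1 (-1.31), the integrin Itgam of recruited myeloid cells (-1.05), the scavenger receptor Msr1 (-1.03) and the actin-binding Aif1 (-0.91). Fcgr1 stood at 989, 1092, 773 and 547 on Day 7 and at 415, 191, 417 and 368 on Day 14, with all Day 14 mice below all Day 7 mice. The lysozyme Lyz2 (0.03), the mannose receptor Mrc1 (-0.12) and the growth factor receptor Csf1r (-0.19) did not pass. Against Day 0, 4 of the 17 were higher on Day 14 with all mice and 11 without No. 2, after 13 on Day 7.

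Alternative activation, the macrophage program driven by interleukin 4 and interleukin 13, fell in 4 of 12 genes with all mice and in 3 without No. 2. The T cell attractant Ccl17 stood at 2285, 2628, 1297 and 889 on Day 7 and at 597, 291, 512 and 459.8 on Day 14 (-1.85 ± 0.36). Retnla, a secreted product of these cells, fell from 21089 ± 2065 to 9529.9 ± 3211, and the lectin Clec10a fell by 1.06 on the log2 scale. Arginase 1, Arg1, stood at 887, 638, 905 and 435 on Day 7 and at 370.1, 64.0, 119.9 and 239 on Day 14. No mouse of Day 14 reached the Day 7 range, and the fall passed with all mice (-2.09, adjusted p = 0.00894) but not without No. 2 (-1.64, adjusted p = 0.0548).

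Some scar macrophage genes did not pass between the days. Trem2, a lipid-sensing receptor of macrophages, was at 24.3, 25.9, 24.7 and 24.3 on Day 0, 709, 696, 398 and 373 on Day 7 and 378, 30.7, 369 and 397 on Day 14. Mice No. 1, 3 and 4 lay at the level of Day 7 No. 3 and 4, and No. 2 lay near Day 0. The difference between the days did not pass with all mice (-1.36 ± 0.53, adjusted p = 0.0662) or without No. 2 (-0.45, adjusted p = 0.308). Day 14 was above Day 0 both with all mice (3.03, adjusted p = 0.0046) and without No. 2 (3.94, adjusted p = 2.14e-08).

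The macrophage elastase Mmp12 stood at 1827, 1413, 1349.7 and 785 on Day 7 and 2502, 153, 1302 and 1933 on Day 14, with No. 1 and 4 above every Day 7 mouse and No. 2 below Day 0's mean of 248 ± 109.8. Its difference from Day 7 was -0.38 with all mice and 0.52 without No. 2, and neither passed (adjusted p = 0.646 and 0.31). Of 16 lipid-handling macrophage genes 2 rose with all mice and without No. 2: the lipid carrier Apoe (0.48, 0.62 without No. 2) and the cholesterol exporter Abca1 (0.45, 0.51). Over all genes tested 10.7% rose with all mice and 4.00% without No. 2, so the count with all mice is not far from that share. Galectin 3, Lgals3, fell with all mice only (-0.43). Apoe stood at 10901, 8739.7, 7587 and 9228 on Day 7 and 15133, 9291, 13439.5 and 13239.5 on Day 14, so that No. 2 was the lowest of its day and the other 3 were above all Day 7 mice. Of 12 lysosomal proteases and membrane proteins 0 passed from Day 7 to Day 14, while 9 were above Day 0 on Day 7 and 5 on Day 14 (9 without No. 2).

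**Figure D3:**
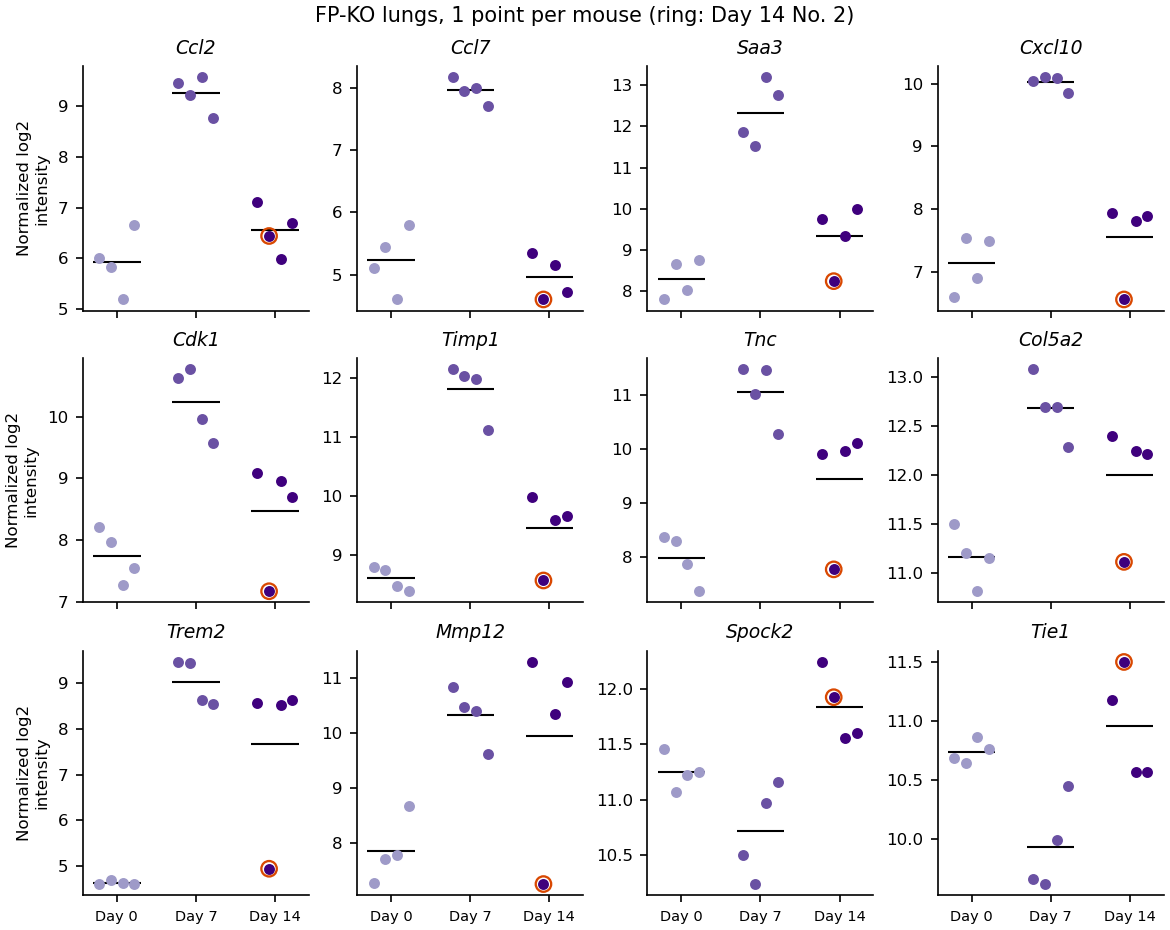
Each panel shows the normalized log2 intensity (y axis) of 1 gene in the FP-KO mice on Day 0, Day 7 and Day 14 (x axis), with a point per mouse and a line at the group mean. A ring marks Day 14 No. 2. Ccl2, Ccl7, Saa3 and Timp1 are lower in every Day 14 mouse than in any Day 7 mouse, Trem2 and Mmp12 are low on Day 14 in No. 2 alone, and Spock2 and Tie1 are higher in every Day 14 mouse than in any Day 7 mouse.

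Interferon-stimulated genes fell in 10 of 18 with all mice and in 9 without No. 2, and 1 rose with all mice. The T cell attractant Cxcl10 stood at 1050.2, 1097, 1094 and 925 on Day 7 and at 246, 94.2, 224 and 236 on Day 14, a 5.56-fold fall (-2.47 ± 0.26, adjusted p = 1.01e-05) with no overlap. The chemokine Cxcl9, which binds the same receptor, fell by 2.07 on the log2 scale and by 1.83 without No. 2. The antiviral genes Oas1a (-1.05), an RNA-sensing synthetase, and Mx1 (-1.16), a virus-blocking GTPase, fell as well. So did the interferon-induced gene Ifi204 (-2.40, with Day 14 No. 1 at the floor). By Day 7 the log2 differences from Day 0 had been 1.08 for Oas1a, 1.20 for Mx1 and 2.89 for Cxcl10. The transcription factor Irf1 rose with all mice (0.34) and did not pass without No. 2 (0.30, adjusted p = 0.111).

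Promoters are shown for 2 interferon-stimulated genes that fell with and without No. 2, as examples of the letters of the interferon-stimulated response element, searched as GAAA, any 2 bases and GAAA. These are the 130 bases before the start of the gene in RefSeq's GRCm38.p6, with each match in capitals on either strand (Oas1a at chr5:120907526-120907655, minus strand; Ifit1 at chr19:34640759-34640888, plus strand), where overlapping matches run together.
Oas1a: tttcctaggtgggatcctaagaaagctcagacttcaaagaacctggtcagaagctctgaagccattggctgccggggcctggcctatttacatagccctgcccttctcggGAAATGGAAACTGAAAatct
Ifit1: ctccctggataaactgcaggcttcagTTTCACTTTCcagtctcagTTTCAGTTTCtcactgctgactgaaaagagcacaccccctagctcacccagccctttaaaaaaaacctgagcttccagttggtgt
The letters were found on either strand in 3 of the 7 fallen interferon-stimulated genes with a window of 250 bases before to 30 after the start (42.9%), and in 3.80% of 27025 genes. Over the tested members with a window the count was 8 of 14. The list is defined by its response to interferon, and a match is a description of letters only. The log2 difference of Ifit1 was -0.65 (-0.61 without No. 2).

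Cell cycle genes fell nearly throughout. Of 35 tested 32 fell and 0 rose with all mice (median -1.17), 28 fell without No. 2 and 20 fell with No. 3 and 4 alone (median -1.07). By Day 7 33 of them had risen, and on Day 14 0 were above Day 0 with all mice and 7 without No. 2. Their mean above FP-KO Day 0 was 1.75, 1.83, 1.37 and 0.97 in the Day 7 mice and 0.73, -0.12, 0.47 and 0.51 in the Day 14 mice. No mouse of Day 14 reached the lowest mouse of Day 7.

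The mitotic kinase Cdk1 stood at 1570.3, 1743, 996 and 758 on Day 7 and at 542, 144, 496 and 416 on Day 14 (-1.75 ± 0.31, adjusted p = 0.000957), against 222 ± 64.2 on Day 0 (SD, n = 4). Its partner of mitosis, cyclin B2 (Ccnb2), went from 1158 ± 451 to 380.5 ± 127 (-1.60 ± 0.26). In both genes No. 2 was lowest, below the Day 0 mean, and the other Day 14 mice were below all Day 7 mice. Genes of DNA synthesis fell too: the thymidine kinase Tk1 (-1.72) and the ribonucleotide reductase subunit Rrm2 (-1.61) make nucleotides, and Mcm5 (-1.41) belongs to the replication helicase. The transcription factors E2f1 (-0.11) and Foxm1 (-0.28) and the helicase subunit Mcm2 (-0.26) did not pass (adjusted p = 0.633, 0.666 and 0.267).

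The promoters of Cdk1 and Ccnb2 are shown for short sequences known from cell cycle promoters. The CCAAT box occurs in both, and the cell cycle homology region, CHR (TTTGAA or TTCGAA), in Cdk1. These are the 130 bases before the start in RefSeq's GRCm38.p6, 5′ to 3′ on the gene's strand, with matches on either strand in capitals (Cdk1 at chr10:69352913-69353042, minus strand; Ccnb2 at chr9:70421555-70421684, minus strand).
Cdk1: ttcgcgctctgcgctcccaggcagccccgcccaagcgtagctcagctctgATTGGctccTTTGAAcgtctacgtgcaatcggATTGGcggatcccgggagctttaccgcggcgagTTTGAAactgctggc
Ccnb2: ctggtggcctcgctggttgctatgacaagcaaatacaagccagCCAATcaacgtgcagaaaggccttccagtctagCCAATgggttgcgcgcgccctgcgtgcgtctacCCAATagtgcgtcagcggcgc
Cdk1 holds 2 CCAAT and 2 CHR matches in this stretch, and Ccnb2 holds 3 CCAAT and 0 CHR matches. In windows from 250 bases before to 30 after the start, CCAAT was found in 21 of 26 fallen cell cycle genes (80.8%) and in 39.7% of 27025 genes. A CHR match was found in 12 of the 26 (46.2%) and in 20.9% of genes. These shares describe the letters and were not tested.

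Matrix genes split. The metalloproteinase inhibitor Timp1 stood at 4573, 4211, 4082 and 2225 on Day 7 and at 1012, 378, 769 and 811 on Day 14, a 5.20-fold fall (-2.38 ± 0.28, adjusted p = 3.42e-05) without overlap, and stayed above Day 0 without No. 2 (1.15, adjusted p = 0.0115). The aggrecanase Adamts4 (-1.61) and the metalloproteinase Adam12 (-1.05) fell with and without No. 2, and the neutrophil collagenase Mmp8 fell with all mice (-1.08; -0.94 without No. 2, adjusted p = 0.0588). In all, 5 of 15 metalloproteinases and inhibitors fell and 1 rose with all mice, and 3 fell and 2 rose without No. 2. Against Day 0, 3 of the 15 were higher on Day 14 with all mice and 8 without No. 2.

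Tenascin C (Tnc), a glycoprotein of healing wounds, stood at 2851, 2079, 2813 and 1242 on Day 7 and at 966, 218, 999 and 1102 on Day 14, with 261 ± 76.7 on Day 0. It fell with all mice (-1.62, adjusted p = 0.00619) and without No. 2 (-1.06, adjusted p = 0.0252) and was still above Day 0 in both (1.47 and 2.02, adjusted p = 0.0374 and 0.000184). No. 1, 3 and 4 lay between the Day 0 and Day 7 mice, and No. 2 lay near the Day 0 mean. The clotting and platelet glycoprotein thrombospondin 1, Thbs1, fell (-0.95), the related Thbs3 rose (0.81), and both passed without No. 2. Cthrc1, a secreted protein of collagen-making fibroblasts, fell with all mice (-0.72) and did not pass without No. 2. In the matricellular list 3 of 15 fell and 2 rose with all mice.

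Of 6 fibrillar collagens tested 6 had risen by Day 7, and from Day 7 to Day 14 Col5a2 (-0.69) and Col5a1 (-0.66), chains of the collagen that starts fibrils, fell with all mice and did not pass without No. 2 (-0.40 and -0.41). The 2 other Col5a1 probe sets above the filter differed by -0.06 and -0.09. Col5a2 stood at 8638, 6613, 6596 and 4966 on Day 7 and at 5402, 2210.2, 4849.8 and 4754 on Day 14, and No. 1 lay above Day 7 No. 4. The main scar collagen chains Col1a1 (0.27), Col1a2 (adjusted p = 0.996) and Col3a1 (-0.14) did not pass either. Of the 6, 4 were above Day 0 on Day 14 with all mice and 6 without No. 2.

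Of 12 other collagens 1 rose, the basement membrane chain Col4a2, with all mice (0.40) and without No. 2 (0.44). Over all genes tested 10.7% rose with all mice and 4.00% without No. 2. The basement membrane chain Col4a1 did not pass (-0.02, another probe set above the filter 0.20). Col4a2 stood at 6484, 5477, 6729.6 and 6191 on Day 7 and at 9622, 7612, 8196 and 7572 on Day 14, with no overlap. Among 11 elastic fibre genes Ltbp4, which binds latent TGF-beta in elastic fibres, rose (1.16, 0.99 without No. 2), and the elastic fibre organiser Fbln5 rose without No. 2 only (0.28 with all mice, 0.46 without). The microfibril protein Mfap4 stood at 12597, 8132, 8955 and 8564 on Day 14 against 6902, 7257, 7293 and 6170.1 on Day 7, did not pass (adjusted p = 0.0836) and was above Day 0 (1.04). Among 14 proteoglycan and hyaluronan genes 4 fell and 1 rose with all mice. Versican, Vcan, a hyaluronan-binding proteoglycan, fell from 833 ± 258 to 337 ± 98.3 (-1.30 ± 0.26), and Prelp, a proteoglycan of basement membranes, rose (0.79), both also without No. 2. Outside that list Cemip, which degrades hyaluronan, fell by 1.73 on the log2 scale with Day 14 No. 2 at the floor.

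Of 19 genes of the TGF-beta pathway 3 fell and 4 rose with all mice, and 1 fell and 0 rose without No. 2. The 1 was Tgfbi, a secreted TGF-beta target, which stood at 7386, 6637, 6195 and 5534 on Day 7 and at 3408, 2194, 2847 and 4039 on Day 14 (-1.07 ± 0.15). The integrin chain Itgb6, which activates latent TGF-beta on epithelium, fell with all mice (-0.91). The co-receptor Tgfbr3 (0.49) and the inhibitory Smad6 (0.48) rose with all mice. None of Itgb6, Tgfbr3 and Smad6 passed without No. 2. Of 11 contractile genes 1 fell with all mice, not far from the share of all genes, and 2 fell without No. 2. The smooth muscle calponin Cnn1 fell (-0.39, -0.48 without No. 2), and alpha smooth muscle actin, Acta2, did not pass (-0.27, adjusted p = 0.127). Of 10 injury growth factors the EGF receptor ligands Ereg (-1.59) and Hbegf (2.01-fold lower) fell with and without No. 2, and Pdgfc (-0.98), a fibroblast mitogen, fell with all mice.

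Of the targets of p53, the DNA damage transcription factor, 2 of 14 fell with all mice and 0 without No. 2. The count with all mice is not far from the share of all genes tested that fell. Cyclin G1, Ccng1, stood at 2835, 2311, 2429 and 2319 on Day 0, 8149.9, 7779.6, 6374 and 5675 on Day 7 and 5398, 2608, 5477 and 5542 on Day 14. Its Day 14 level was below Day 7 with all mice (-0.61) and above Day 0 with all mice (0.88) and without No. 2 (1.15). Of the 14, 7 were above Day 0 on Day 7, 6 on Day 14 and 7 on Day 14 without No. 2.

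Epithelial lists moved in opposite directions. Of 11 genes of the transitional state, in which alveolar type 2 cells turn to type 1 cells after injury, 11 had risen by Day 7. By Day 14, 7 fell with all mice, 2 without No. 2 and 1 with No. 3 and 4 alone. Sprr1a, a squamous envelope protein of that state, stood at 1197, 1334, 900.1 and 484 on Day 7 and at 165, 56.5, 181 and 185 on Day 14, a 6.87-fold fall without overlap (-2.78 ± 0.42). The tight junction claudin Cldn4 fell with all mice (-1.20) and did not pass without No. 2 (adjusted p = 0.116). The keratins Krt8 (-0.33) and Krt19 (-0.25) did not pass (adjusted p = 0.0868 and 0.131).

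Of 14 alveolar type 1 markers 9 rose with all mice, 7 without No. 2 and 4 with No. 3 and 4 alone, and 0 fell. The matrix proteoglycan Spock2 stood at 1447, 1210, 2009.6 and 2288 on Day 7 and at 4853, 3893, 3012 and 3122 on Day 14 (1.12 ± 0.17, adjusted p = 0.00036). All Day 14 mice were above all Day 7 mice, with No. 3 and 4 lower than No. 1 and 2. The lung claudin Cldn18 stood at 5438, 4929, 7243 and 6607 on Day 7 and at 11464, 10033, 9529 and 8739.7 on Day 14 (0.73 ± 0.16), while its other probe set above the filter differed by 0.01. The other probe set of Spock2 differed by 0.25. The advanced glycation receptor Ager, a defining type 1 marker, rose by 0.45. Of 14 alveolar type 2 markers 8 rose with all mice and 4 without No. 2, and 0 fell, with the mucin Muc1 (0.63) and the phosphate transporter Slc34a2 (0.47) among those that passed both ways. The lung transcription factor Nkx2-1 (0.76) and Etv5 (0.53), which keeps type 2 identity, rose with all mice only. By Day 7, 7 type 1 and 3 type 2 markers had fallen, and on Day 14 0 of either list were below Day 0.

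Among airway markers 2 of 13 club and goblet genes and 2 of 13 ciliated genes rose with all mice. The retinal dehydrogenase Aldh1a1 (0.42) and the club cell cytochrome Cyp2f2 (0.31) are the former and Tppp3 (0.55) and Hydin (0.46), genes of cilia, the latter. Of these 4 Aldh1a1 also passed without No. 2 (0.32). Over all genes tested 10.7% rose with all mice and 4.00% without No. 2, so these counts are not far from those shares.

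Endothelial markers rose in 13 of 24 with all mice, in 8 without No. 2 and in 1 with No. 3 and 4 alone, and 0 fell. The angiopoietin receptor family member Tie1 stood at 806, 784, 1016 and 1399.6 on Day 7 and at 2325, 2903, 1519.6 and 1520.3 on Day 14 (1.03 ± 0.21, adjusted p = 0.00267). No. 3 and 4 lay just above the highest Day 7 mouse and No. 1 and 2 far above it. Other members that rose both ways were the VEGF receptor Flt1 (0.72), the transcription factors Sox18 (0.68) and Tbx3 (0.97), the angiopoietin receptor Tek (0.57) and the phosphatase Ptprb (0.50). The 3 other Flt1 probe sets above the filter differed by 0.15, 0.23 and 0.45. The junction protein Cldn5 (0.01) and the capillary sialomucin Emcn (0.02) did not pass (adjusted p = 0.959 and 0.933). The mean of the list against FP-KO Day 0 was -0.57, -0.60, -0.46 and -0.31 in the Day 7 mice and 0.04, 0.23, -0.25 and -0.21 in the Day 14 mice. In 16 of the 24 genes No. 1 and 2 both lay above No. 3 and 4.

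Of 10 resident fibroblast markers 3 rose with all mice and 1 without No. 2. That 1 was the integrin chain Itga8 (0.46, 0.42 without No. 2), which stood at 6020.2, 5444, 6162 and 8221 on Day 7 and at 9201, 9424, 8073 and 8379 on Day 14, with Day 7 No. 4 inside the Day 14 range. Of 15 circadian clock genes 9 had fallen by Day 7, and 5 rose and 1 fell from Day 7 to Day 14. Tef, a clock output factor, rose with and without No. 2 (0.87 and 0.76), with its other probe sets above the filter at 0.77 and -0.18. Nr1d1 (0.75) and Per1 (0.75), repressors of the clock, rose with all mice. The labels give no time of day for the sampling.

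The largest rises were smaller than the largest falls, and several rest on dim probe sets. Acap3, a regulator of membrane traffic, stood at 45.3, 24.3, 27.5 and 24.3 on Day 7, with 2 mice at the floor, and at 235, 151, 54.2 and 125 on Day 14 (2.09, understated). The transporter Slc13a4 followed with 1.69 and 1 Day 7 mouse at the floor. Lbh (1.24), a transcription cofactor, rose on the brightest probe set, while another of its probe sets differed by -0.69. The same held for the RNA gene Snhg11 (1.05, another probe set -0.59). Other probe sets above the filter also gave smaller differences for Adam12 (-0.34), Hbegf (-0.36), Gria1 (0.27) and Hspa1b (-0.37 and -0.34). In 10 of the 12 largest rises No. 1 and 2 both lay above No. 3 and 4. Dpep1, a membrane dipeptidase, is an example: it stood at 745, 1002, 1116 and 1588 on Day 7 and at 2979, 3157, 1962 and 1422 on Day 14, where No. 4 was within the Day 7 range.

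Among the largest falls outside these lists, the adhesion molecule Chl1 stood at 637, 499, 576 and 268 on Day 7 and at 58.9, 45.2, 86.5 and 102 on Day 14, a 6.77-fold fall (-2.76 ± 0.37) without overlap. Rgs16, which shortens G-protein signals, fell by 2.00 on the log2 scale with all mice and by 1.83 without No. 2.

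Of the 6 genes that fell most by Day 7 in WT lungs, Ecm2 (0.83), a matrix protein, and the glutamate receptor subunit Gria1 (0.78) rose with all mice and did not pass without No. 2 (0.64 and 0.73). Igfbp3, a carrier of insulin-like growth factors, stood at 228, 213, 276 and 590.1 on Day 7 and 486, 1126, 408 and 347 on Day 14, where only No. 2 lay above all Day 7 mice (adjusted p = 0.0622). The fatty acid carrier Fabp1 (0.09), the lectin receptor Asgr1 (-0.07) and Gm33248 (0.94) did not pass.

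Of 10 T cell markers 6 fell with all mice and 2 without No. 2, the latter the CD3 chain Cd3d (-0.86) and the CD8 chain Cd8b1 (-0.83). Cd3d stood at 887, 897, 649.8 and 821 on Day 0, 1040.4, 1027, 829 and 769 on Day 7 and 487, 348, 548 and 668 on Day 14, with Day 14 below Day 0 (-0.69, adjusted p = 0.0164). Of 11 NK and cytotoxic markers 4 fell with all mice and 3 without No. 2, and 8 were below Day 0 on Day 14 both ways. The activating receptor Klrk1 stood at 543, 494, 515 and 478 on Day 7 and at 259, 243, 284 and 312 on Day 14 (-0.89 ± 0.16), with tight values on both days and No. 2 like the rest. Of 10 platelet genes the platelet chemokine Pf4 fell (-0.54, -0.53 without No. 2), and 8 were below Day 0 on Day 14.

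Of 9 neutrophil genes 3 fell with all mice (median -0.79) and 0 passed without No. 2, where the median was as low (-0.83). The calprotectin chain S100a9 stood at 5514, 11029, 2954 and 3526 on Day 0, at 1723, 1619.8, 5275 and 2891 on Day 7 and at 773, 1139, 1102 and 2051 on Day 14, a wide spread in which Day 14 No. 4 overlapped Day 7. Of 9 B cell genes 0 passed, and the immunoglobulin chains Ighm (0.61) and Igha (0.87) did not pass (adjusted p = 0.382 and 0.183). Other Ighm probe sets above the filter differed by 0.37, 0.16, 0.04, -0.33 and -0.49.

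Markers of tissue that can be cut with lung were followed as a check. Of 16 cardiac and skeletal muscle genes and of 8 adipocyte genes, 0 passed from Day 7 to Day 14. The mean of the muscle list against FP-KO Day 0 was -0.53 to -0.16 in the Day 7 mice and -0.68 to 0.10 in the Day 14 mice, highest in No. 2. That of the adipocyte list was -0.98 to 0.33 and -1.01 to 0.15, and again highest in No. 2 on Day 14. The fat hormone Adipoq stood at 549, 1347, 1025 and 658 on Day 14.

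In the prostanoid pathway, to which the deleted receptor belongs, 4 of 15 genes fell and 1 rose with all mice, and 2 fell and 1 rose without No. 2. The inducible cyclooxygenase Ptgs2, which starts prostaglandin synthesis, stood at 729.9, 844, 664 and 648 on Day 7 and at 572, 402, 453 and 438 on Day 14 (-0.63 ± 0.13), with every Day 14 mouse lower. The prostaglandin E receptor Ptger4 fell from 1789 ± 209.9 to 956 ± 214 (-0.93 ± 0.15) and passed both ways. The E receptors Ptger3 (-0.80) and Ptger2 (-0.59) fell with all mice and did not pass without No. 2. By Day 7, 7 of the 15 had risen, and on Day 14 0 differed from Day 0 with or without No. 2.

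Proteasome subunits fell by small amounts in 12 of 18 with all mice, in 4 without No. 2 and in 0 with No. 3 and 4 alone. Examples are Psma4 (-0.57) and Psmb3 (-0.55). Of 19 subunits of respiratory complex I, 4 fell with all mice and 0 without No. 2. Psmb3 stood at 4067, 4627, 3974 and 3338 on Day 7 and at 2778, 2152, 2996 and 3035 on Day 14, with no overlap. The heat-shock protein Hspa1b and the immediate-early factor Egr2 fell by 1.01 and 0.99 on the log2 scale, the latter also without No. 2. The fatty acid desaturase Scd2 rose by 0.35, and its other probe sets above the filter differed by 0.77 and 0.57. The squalene synthase Fdft1 fell with all mice (-0.46).

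**Figure D4:**
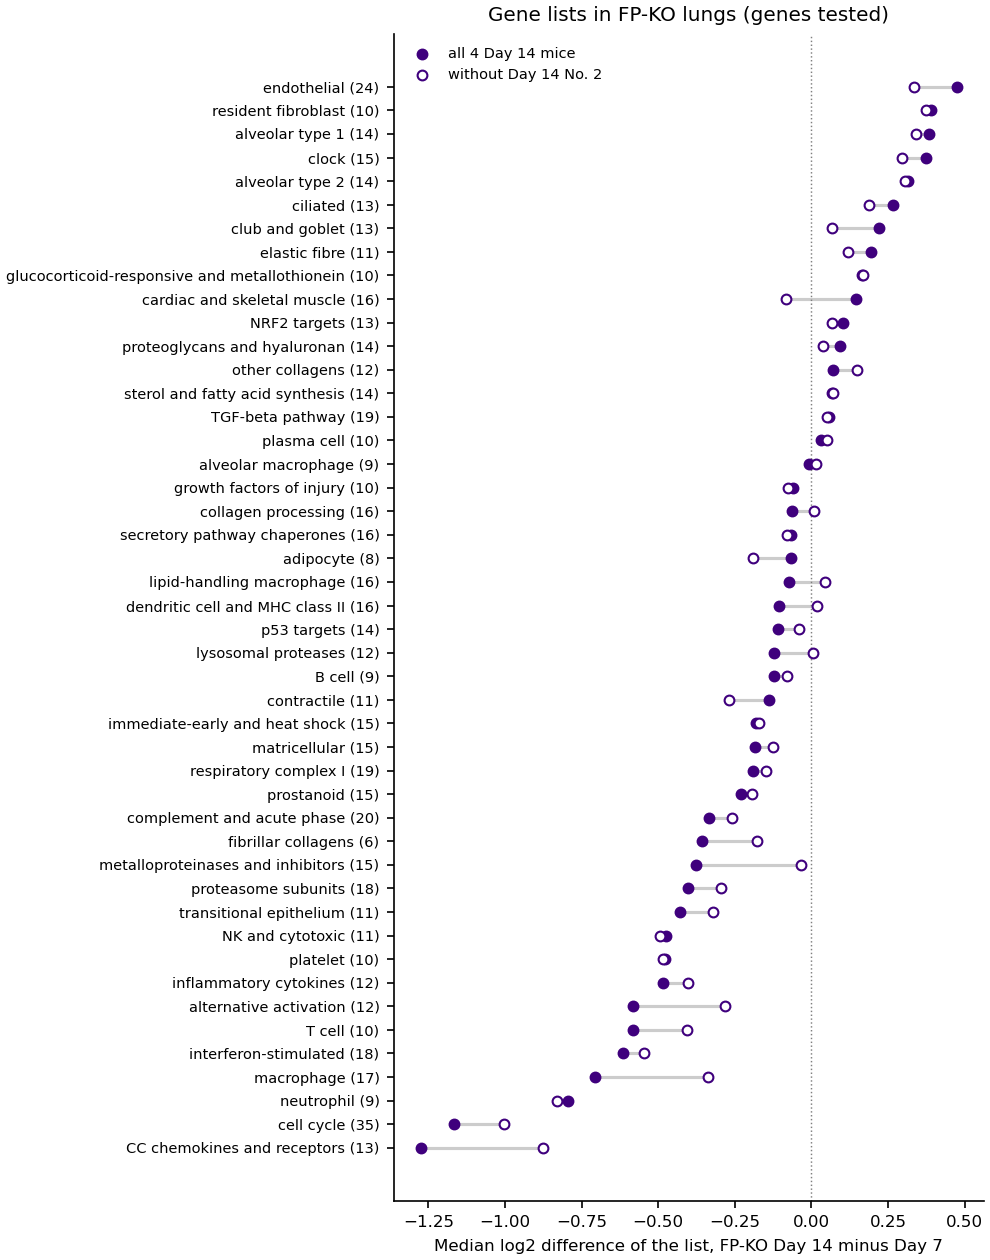
Points give the median log2 difference between FP-KO Day 14 and Day 7 (x axis) of each gene list with at least 6 genes tested (y axis, genes tested in parentheses), filled with all 4 Day 14 mice and open without No. 2. CC chemokines (-1.27) and cell cycle genes (-1.17) lie lowest and endothelial markers (0.48) highest with all mice. Without No. 2 cell cycle genes lie lowest, and resident fibroblast (0.38) and alveolar type 1 markers (0.34) lie above endothelial ones (0.33). The median over all genes tested is -0.00344.

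The change in WT lungs over the same week was set beside that in FP-KO lungs. In WT lungs 430 genes (3.56%) rose and 286 (2.37%) fell from Day 7 to Day 14. For the 490 injury risers the median was -0.26 in WT, where the Day 7 mice also chose the genes, and -0.78 in FP-KO. Of the 12 largest FP-KO falls the WT values were, for example, -1.76 for Ccl2, -1.92 for Ccl7, -2.39 for Sprr1a, -1.18 for Timp1 and -1.13 for Cxcl10, and each of these 5 passed in WT. Saa3 (-1.03), Chl1 (-1.12) and Rgs16 (-0.70) did not pass in WT (adjusted p = 0.0845, 0.0571 and 0.16). Of 35 cell cycle genes 0 passed in WT (median -0.28). Alveolar type 1 markers rose in 8 of 14 in WT and in 9 of 14 in FP-KO.

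**Figure D5:**
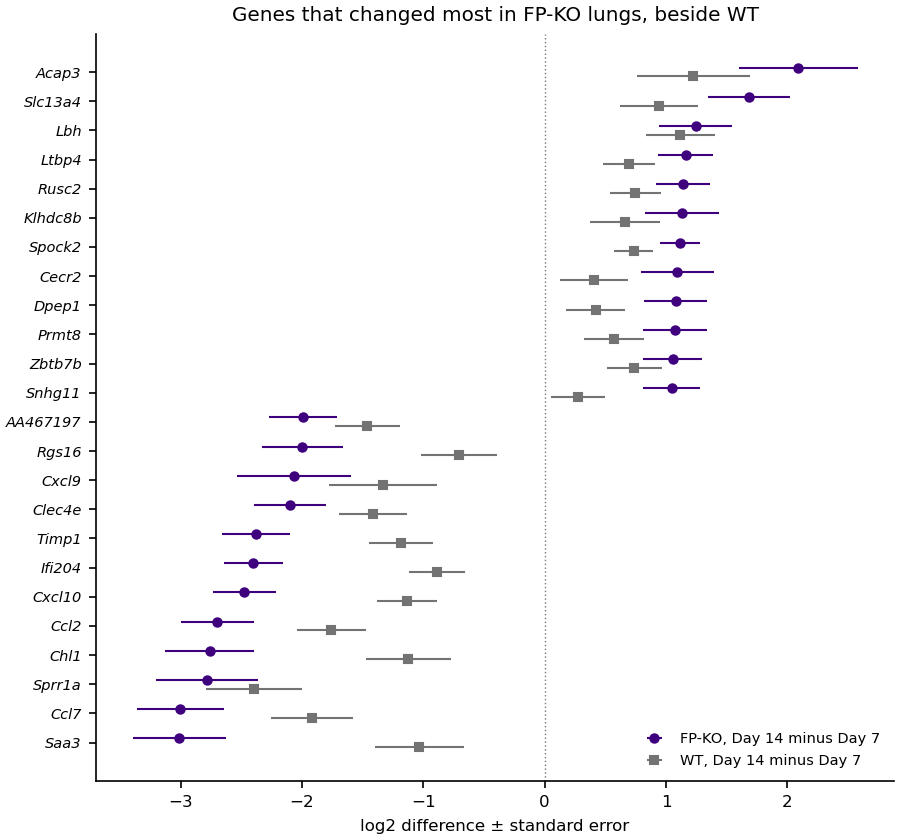
The x axis is the log2 difference between Day 14 and Day 7 with its standard error, for the 12 genes that rose and the 12 that fell most in FP-KO lungs (y axis). Circles are FP-KO and squares WT lungs. The FP-KO values lie further from 0 than the WT values in these genes, which were chosen for their change in FP-KO, and for none of the 24 did the difference between the genotypes pass.

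Whether the change differed between the genotypes was tested directly, as the FP-KO change minus the WT change. Of 12062 genes 1 passed (0.00829%), Ifi44l, and 931 had an unadjusted p under 0.05 in limma. The count depended on which Day 14 mice entered: 33 genes passed with FP-KO No. 1 and 2 alone at Day 14 against all WT mice, and 25 with FP-KO No. 1 and 2 against WT No. 1 to 3. It was 1 with FP-KO No. 3 and 4 alone against all WT mice and 0 with FP-KO No. 3 and 4 against WT No. 4 and 5. With all mice, no gene other than Ifi44l was shown to differ in its change. Ifi44l, an interferon-induced gene, was at the floor in 10 of 13 WT arrays and at 32.5 at most, while the FP-KO arrays ran from 147.5 to 492.9, and in RefSeq's gene table no gene lies between it and Ptgfr. Its FP-KO values were 399.7, 493, 378 and 441 on Day 7 and 207, 147, 200.2 and 183 on Day 14, and its difference in change was -1.04 ± 0.15 (adjusted p = 0.0072). Deletion of the receptor and genotype of the surrounding chromosome cannot be told apart here. The next smallest p-values belonged to Rgs4, Ifi204, Wdpcp and Serpinb9, none of which passed (adjusted p = 0.393 for each). Of these, Ifi204 fell by 2.40 in FP-KO and by 0.89 in WT on the log2 scale.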

How the data were processed

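The deposited table holds 1 linear intensity per probe set and array (45101 probe sets, 25 arrays). With 2% left out at each end, the mean is 500.0 on each array, and which software the authors used is not stated by the labels. Groups and mouse numbers came from the sample titles. Intensities were floored at 24.3 (the 20th percentile), taken to log2 and quantile-normalized. The brightest probe set of the 34945 with 1 symbol stood for each of 18193 genes, and 12062 genes that exceeded the median of 4 or more arrays were tested. Limma 3.58.1 in R 4.3.3 fitted 6 group means on all 25 arrays (eBayes, Benjamini-Hochberg adjustment over all genes tested). A gene passed at an adjusted p under 0.05, and the scripts were tested on simulated data. Intensities printed in the report are normalized ones back on the linear scale. No label says that the mice came from separate cages or litters, and the number of arrays limits the precision.

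The samples, the 49 gene lists (747 genes, of which 621 were tested) and the tests were chosen with earlier results of these data known. Named are Ptgfr, the 12 largest rises and 12 largest falls that passed with and without Day 14 No. 2, the 12 and 6 injury genes with the largest WT rise and fall, up to 4 members of each list, and the 5 smallest p of the difference in change. Other list members named were chosen after their values were seen. Gene names come from the platform annotation, matched to RefSeq's GRCm38.p6 by gene number for 34741 probe sets. Figures were drawn with matplotlib 3.10.9.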

Additional observations from a re-analysis of the deposited data

Results flagged for a closer look

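In 5 of 76 groups of 4 FP-KO mice looked at for single genes, 1 mouse lay apart from the other 3 beyond Dixon's 95% limit. Chance flags about 1 in 20 groups. In 4 of the 5 that mouse was FP-KO Day 14 No. 2. Its normalized intensity was 56.5 for the squamous protein Sprr1a (164.5 to 185.3 in the other 3 mice), 94.2 for the chemokine Cxcl10 (223.7 to 245.9), 30.7 for the macrophage receptor Trem2 (368.9 to 396.9) and 218.3 for tenascin C, Tnc (965.6 to 1102). The other was Timp1 in FP-KO Day 7 No. 4, at 2225 against 4082 to 4573.

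The change of Ifi44l from Day 7 to Day 14 differed between the genotypes by -1.04 on the log2 scale, by the test of that difference (limma, adjusted p = 0.0072). The WT side of it rests on arrays at or near the floor.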

How the results depend on the processing

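The counts depend on which arrays enter the fit. With the 8 FP-KO arrays alone 141 genes rose and 231 fell, and 107 injury risers and 14 injury fallers moved back. With No. 3 and 4 alone at Day 14 the counts were 111, 236, 124 and 9. Array weights gave 779, 886 and 33 fallers moved back, and 3545 genes in WT against 716. A common median gave 669 rises, 0 genes that differed in change between the genotypes and 448 in WT, and the mean of all probe sets gave 43 fallers moved back. The number that differed in change was 0 with the lower floor (10th percentile) and with trend and robust eBayes, and 2 with the higher floor (40th percentile) and with no filter. With 1 array left out in turn, rises ran from 482 to 1538, falls from 585 to 1638, risers moved back from 195 to 330, fallers moved back from 22 to 77, genes that differed in change from 1 to 2 and WT genes from 193 to 1445; for the WT arrays this was chosen after seeing the data.

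Also chosen after seeing the data were fits within the arrays that lie together on the second component. FP-KO No. 3 and 4 with WT No. 4 and 5 at Day 14 gave 0 genes that differed in change and 15 in WT, and FP-KO No. 1 and 2 with WT No. 1 to 3 gave 25 and 2961. No named gene turned its direction past the test under any alternative run. Of 176 named genes 55 lost their call without Day 14 No. 2, 98 with No. 3 and 4 alone and 92 with the 8 FP-KO arrays alone. With the replicate block 135 lost it. The 176 include genes that had not passed in the main fit, such as Ptgfr and Trem2, and so had no call to lose. With the replicate block on the 8 FP-KO arrays, only 6 of all genes tested passed.

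The labels do not say that equal mouse numbers pair the samples. Deviations from the group means correlated between Day 7 and Day 14 mice of the same number at 0.153, -0.235, -0.074 and -0.150. So few correlations cannot show whether mice were paired or handled together by number. With the replicate block on the 8 FP-KO arrays 0 genes rose and 6 fell, and 6 risers and 0 fallers moved back. With the replicate block on all arrays 2 genes differed in change and 1551 passed in WT. Cause of these shifts was not tested. Low intensities limit the dim genes, whose differences are understated where mice are at the floor.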
